A study of Rattus norvegicus with 12 samples.

Results

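The synaptic vesicle and SNARE fusion genes were examined on 12 rat arrays. They are the genes whose symbol in the array annotation names a synaptotagmin, syntaxin, syntaxin-binding protein, VAMP, SNAP-25 family member, synapsin, SV2 protein, complexin, Rab3 protein or part of the SNARE disassembly machinery. The name rule took 75 of the 14218 genes with a single symbol, through 114 of 31099 probe sets. Each gene was read through 1 probe set, the one with the highest mean log2 signal, and 31 of the 75 genes had more than 1. The rule also took Rab30 to Rab39 (11 genes), relatives whose names start like Rab3, and Snap91, the clathrin adaptor AP180, which is no SNARE.

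Male Wistar rats were given acrylamide at 30 mg/kg or saline by oral gavage every day for 21 days. Their age at the start is 3 weeks in one label and 25 days in another, 1 label calls the saline a solvent, and 1 can be read as collection 21 days after treatment. Sciatic nerve (right and left nerves), spinal cord and cerebellum were profiled in both treatments, with 2 arrays in each of the 6 groups. Each array carried RNA from a pool of tissue of 2 rats, so the tests measure the spread between pools.

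A synaptic vesicle fuses with the plasma membrane when its VAMP zips together with a syntaxin and a SNAP-25 protein of the target membrane. Synaptotagmins sense the calcium that triggers the step, complexins hold and release the assembled complex, and NSF with its SNAP adaptors takes the complex apart for the next round. Neurons use one set of these proteins (Vamp1, Vamp2, Stx1a, Snap25 and others), while other cells run secretion and endosome traffic with paralogues such as Vamp3, Vamp8, Stx4 and Snap23. Acrylamide is a small electrophile that binds cysteine thiols and is known for damage to distal axons and nerve terminals. A sciatic nerve holds axons whose cell bodies lie in the spinal cord and in ganglia outside the nerve, along with Schwann cells, fibroblasts and other cells.

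The promoters of 4 SNARE genes are shown because these genes come as pairs from the same family that differed in opposite directions between nerve and cord: Vamp1 and Stx1a were lower in the nerve, Vamp8 and Stx11 higher. For Stx1a and Stx11 the filter on low signals, given below, sets the direction. Stx1a passed it in the cord but not the nerve, and Stx11 in the nerve but not the cord. The promoters are the 250 bases before the RefSeq start on GRCr8: Vamp1 at chr4:159698644-159698893 (plus strand), Vamp8 at chr4:106005643-106005892 (minus strand), Stx1a at chr12:27306472-27306721 (minus strand) and Stx11 at chr1:9140220-9140469 (minus strand). Each is written on its gene's strand, with the GC box GGGCGG, the CCAAT box CCAAT and the CRE palindrome's left part TGACG in capitals, searched on both strands. The RE1 left part TTCAGCACC was searched too and is in none of the 4.
Vamp1: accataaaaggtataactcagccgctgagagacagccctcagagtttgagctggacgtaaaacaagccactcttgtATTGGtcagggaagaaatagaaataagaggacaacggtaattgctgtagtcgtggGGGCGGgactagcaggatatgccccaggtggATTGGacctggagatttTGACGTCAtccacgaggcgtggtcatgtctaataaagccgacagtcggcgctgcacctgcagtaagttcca
Vamp8: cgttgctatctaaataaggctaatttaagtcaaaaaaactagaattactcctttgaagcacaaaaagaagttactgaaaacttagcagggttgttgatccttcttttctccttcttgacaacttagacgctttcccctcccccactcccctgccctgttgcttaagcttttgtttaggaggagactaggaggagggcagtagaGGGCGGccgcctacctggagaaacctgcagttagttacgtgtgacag
Stx1a: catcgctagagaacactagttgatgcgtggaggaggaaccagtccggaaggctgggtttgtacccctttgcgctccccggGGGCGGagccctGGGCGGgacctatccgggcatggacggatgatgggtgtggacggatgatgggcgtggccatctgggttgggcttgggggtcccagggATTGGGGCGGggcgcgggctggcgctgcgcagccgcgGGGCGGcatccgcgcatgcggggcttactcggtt
Stx11: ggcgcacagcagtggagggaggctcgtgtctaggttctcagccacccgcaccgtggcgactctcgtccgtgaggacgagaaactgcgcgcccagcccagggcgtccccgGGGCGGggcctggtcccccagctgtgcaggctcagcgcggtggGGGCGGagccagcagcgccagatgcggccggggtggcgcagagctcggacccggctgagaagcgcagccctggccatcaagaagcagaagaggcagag
The Vamp1 promoter held TGACG on both strands within 1 full palindrome TGACGTCA, 2 CCAAT boxes and 1 GC box. The Stx1a promoter held 4 GC boxes and 1 CCAAT box that overlaps one of them, the Stx11 promoter 2 GC boxes and the Vamp8 promoter 1. Promoters were matched for 60 of the 75 genes. GC boxes were found in 65.0% of these 60 promoters, against 32.4% of 27457 promoters of the same length, and the full CRE in 5.0% (Vamp1, Syn1 and Napa), against 1.7%. CCAAT boxes were found in 31.7% of the 60, against 34.3% of all. The set of 27457 promoters also holds genes that these arrays do not measure, so it is not a background of measured genes. The motif matches describe letters and are not binding sites.

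Of the 75 genes, the filter on low signals was passed by 51 in sciatic nerve, 65 in spinal cord and 57 in cerebellum (a mean log2 signal over the 40th percentile of all tissue means, near a signal of 110). The 8 genes that passed in no tissue were Cplx3, Rab39a, Stx17, Sv2c, Syn3, Syt6, Syt8 and Syt10, with 137.8 as the highest signal on any array, in Syt8. A signal is a brightness in arbitrary units, used as deposited, and levels are compared only within a probe set. The trimmed mean signal was 500.124 to 500.151 over the 12 arrays, and the median 161.8 to 199.0. Differences below are on the log2(signal + 16) scale with their standard error (SE), from 1 limma fit of the 12 arrays. A difference between tissues was called at an adjusted p below 0.05 and at least 2-fold, and one between treatments at an adjusted p below 0.05.

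The tissue labels were set against marker genes. The summed signal of 5 Schwann cell markers was 71004 to 92450.3 in the nerve, 18109.8 to 30490.3 in the cord and 1540.0 to 1721 in the cerebellum. The sum of 11 cerebellar neuron markers was 89612 to 96655 in the cerebellum and 4035 to 5904 in the cord. In the nerve, that sum was 14758 and 1857 on the acrylamide arrays, against 11431 and 1145 on the saline arrays, so that the array numbered 1 of each treatment stood far above the array numbered 2. Pvalb, 1 of these 11 markers, had 942 on nerve acrylamide array 2, 163 on nerve saline array 2 and 3562 on cord saline replicate 1. Motor neuron markers (5 genes) summed to 428 and 393 on the acrylamide nerve arrays, against 545 and 436 on the saline ones, and to 5486 to 5953 in the cord. Skeletal muscle markers stood out on 1 cord array, saline replicate 1, at 55581 against 6466 to 7798 on the other cord arrays. In the nerve they summed to 6432 and 27590.5 on the acrylamide arrays, against 9343 and 3549.5 on the saline arrays. Fat cell markers (7 genes) summed to 7839.8 and 10569 on the acrylamide nerve arrays, against 29352 and 5265 on the saline ones.

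Many neuronal fusion genes moved with the same pair of nerve arrays, which limits what their nerve values below can show. Most general fusion genes did not. Snap25, the neuronal target-membrane SNARE, had signals of 7298 and 533 on the acrylamide nerve arrays, against 5794 and 758 on the saline nerve arrays. Syt4, a synaptotagmin, had 1265 and 82.3 on the acrylamide nerve arrays, against 819 and 116 on the saline nerve arrays. Cplx1, the complexin of many fast synapses, had 1512 and 191 on the acrylamide nerve arrays, against 1294 and 267 on the saline nerve arrays. In all 3 genes both arrays numbered 1 were several times brighter than both arrays numbered 2, whichever the treatment. Among the 51 members that passed in the nerve, 16 (31.4%) were higher on both arrays numbered 1 than on both numbered 2, against 18.8% of 18088 probe sets, and 8 of them (15.69%) by at least 2-fold, against 1.8%. These 8 were Snap25, Syt4, Cplx1, Snap91, Napb, Nsf, Rab3a and Vamp1.

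By role, 7 of the 10 genes of the neuronal set that passed in the nerve were higher on both arrays numbered 1, and 6 of them by at least 2-fold. In the general set, which holds the paralogues used in other cells, 4 of 20 were, and none by 2-fold. The surplus of the array numbered 1 was set against the same gene's cerebellar level. Over 13 neuronal genes with a cerebellar signal above 1000, its median was 9.5% of that level for the acrylamide pair and 6.3% for the saline pair. Over 10 cerebellar neuron markers it was 12.3% for the acrylamide pair and 9.3% for the saline pair. The gene with the highest surplus was Snap25, at 34.3% and 25.5% of its cerebellar level. In the saline pair Sv2b (-23.6%), Vamp2 (-7.16%) and Cplx2 (-2.97%) went the other way. What part the neuronal markers on these arrays play in the nerve values was not tested.

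**Figure D1:**
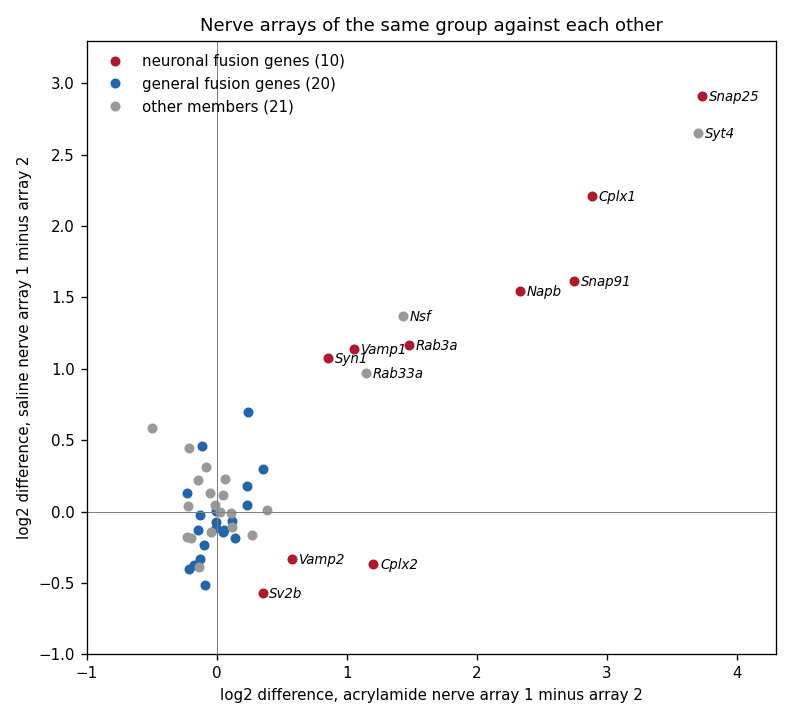
Each point is a member that passed the filter in the sciatic nerve, placed by the log2 difference between the arrays numbered 1 and 2 of the acrylamide group (x axis) and of the saline group (y axis). Neuronal genes such as Snap25 (3.74 and 2.91) and Cplx1 (2.89 and 2.21) lie far to the upper right, while most general fusion genes lie near 0 on both axes.

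Between sciatic nerve and spinal cord, 27 of 66 tested members were called lower in the nerve and 5 higher. Over all 20242 probe sets, 15.5% were called lower and 11% higher. The median difference of the members was -0.49, and that of the 18 neuronal genes, 16 of them tested, was -3.20 with 13 called lower and none higher. Of these 13, 6 passed the filter in the cord alone (Rab3c, Stx1a, Sv2a, Syn2, Syt1 and Syt2), and 7 were among the 10 that passed in both tissues. Of the 21 general genes, 20 were tested: their median was -0.07, with 1 called lower (Napg) and 1 higher (Vamp8). Of the 66 members, 15 passed the filter only in the cord and 1 only in the nerve, which sets their direction, and their differences are set against signals under the filter. Among the 50 that passed in both, 13 were called lower and 4 higher, beside 1608 and 1667 of 16813 probe sets. In whole tissue, fewer cells of a type and less RNA per cell cannot be told apart.

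The vesicle SNAREs divided by family member. Vamp1, a synaptic vesicle SNARE, had signals of 1143 and 542 (acrylamide) and 1161 and 518 (saline) in the nerve, against 11069 and 11672 (acrylamide) and 11518 and 11329 (saline) in the cord. Every nerve array was far below every cord array, and the difference was -3.84 ± 0.26 (adjusted p = 1.67e-06). Vamp8, which serves endosomes and secretory granules, had 1635 and 1894 (acrylamide) and 1581 and 2098 (saline) in the nerve, against 926 and 768 (acrylamide) and 694 and 924 (saline) in the cord, with no overlap and a difference of 1.11 ± 0.12 (adjusted p = 3.45e-05). Vamp2, the main synaptic vesicle SNARE of the brain, differed less than Vamp1, by -0.76 ± 0.13, with signals of 1165 to 1777 in the nerve and 2387 to 2841 in the cord. Vamp3, of recycling endosomes, was near 0 in difference, with 2327 to 2751 in the nerve and 2395 to 2653 in the cord, and Vamp5, first described in muscle, differed by 0.88 ± 0.12. Vamp4 and Vamp7, of Golgi and late endosome traffic, differed by -0.13 ± 0.10 and -0.31 ± 0.11, with no call.

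The called target-membrane syntaxins were 1 lower and 1 higher, each passing the filter in its brighter tissue alone, which sets the direction. Stx1a, the syntaxin of the presynaptic membrane, had 72.5 and 61.6 (acrylamide) and 51.9 and 109.8 (saline) in the nerve, against 164 and 162 (acrylamide) and 175 and 156 (saline) in the cord, a difference of -1.04 ± 0.19 (adjusted p = 0.000919). Stx11, a syntaxin of immune cell secretion, had 229 and 254 (acrylamide) and 217 and 289.9 (saline) in the nerve, against 52.5 and 45.4 (acrylamide) and 47.9 and 112 (saline) in the cord, a difference of 1.77 ± 0.28 (adjusted p = 0.000324). The nerve arrays lay below all cord arrays for Stx1a and above them for Stx11. Snap25 differed by -2.97 ± 0.79 (adjusted p = 0.0076), with 15333 to 16627 in the cord beside the nerve signals given above. Without both nerve arrays numbered 1 that SE was 0.10, but it then holds no spread between nerve pools. Snap23 and Snap29, the widely expressed members of the family, were 0.63 ± 0.11 and 0.56 ± 0.06 higher in the nerve, below 2-fold (adjusted p = 0.000667 and 4.04e-05). Stx4, a plasma membrane syntaxin of most cells, was 0.33 ± 0.06 higher (adjusted p = 0.000749), and Stx3 differed by -0.07 ± 0.16, with no call.

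**Figure D2:**
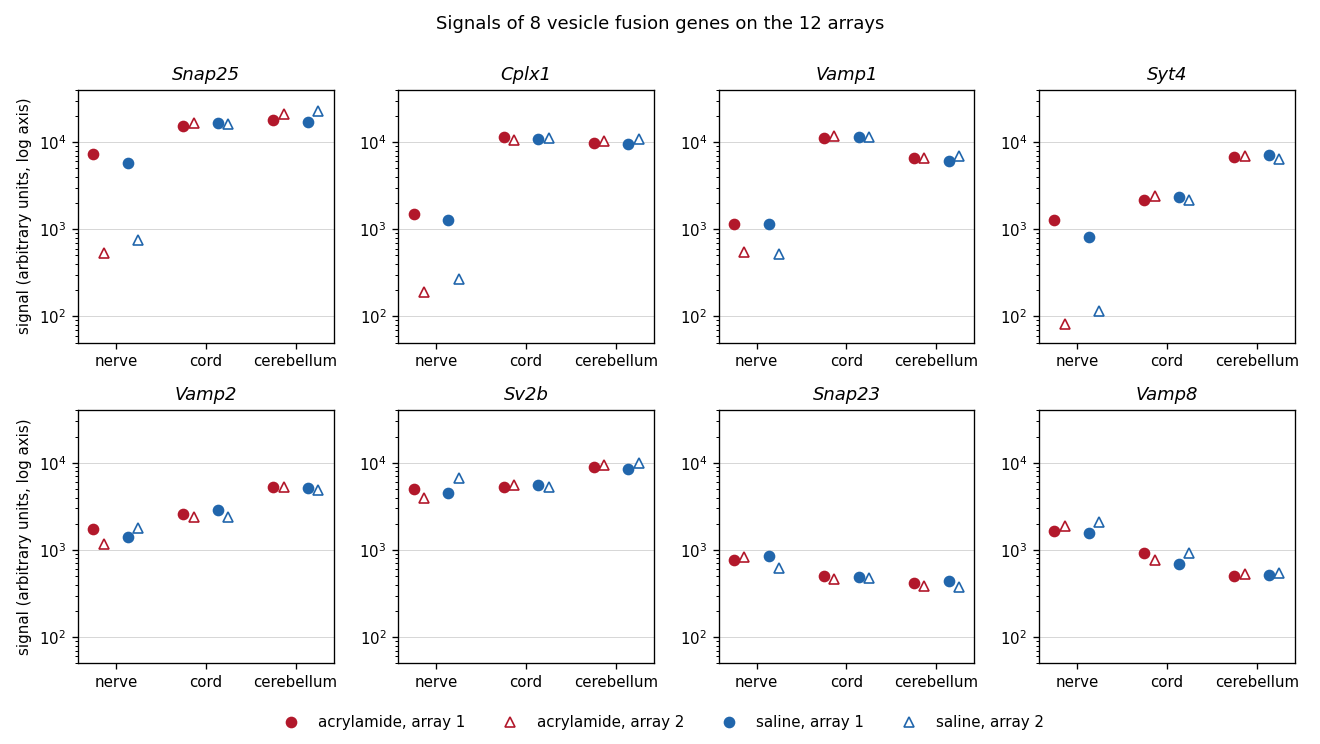
Signals of 8 members on a log axis (arbitrary units) on each of the 12 arrays, by tissue, with acrylamide in red left of saline in blue, circles for arrays numbered 1 and triangles for arrays numbered 2. Snap25, Cplx1, Vamp1 and Syt4 are lower in the nerve and split by array number there. On the probe set shown, Sv2b differs little between nerve and cord and is higher in the cerebellum. Snap23 and Vamp8 are highest in the nerve.

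Among the proteins that act on the assembled complex and on the vesicle, Cplx1 differed by -4.23 ± 0.60 (adjusted p = 0.000183), with 10549 to 11355 in the cord. Sv2a, a vesicle glycoprotein and the binding site of the antiepileptic levetiracetam, had 205 and 20.3 (acrylamide) and 148 and 11.3 (saline) in the nerve, against 1668 and 1694 (acrylamide) and 1806 and 1656 (saline) in the cord. Its difference, -4.47 ± 0.61 (adjusted p = 0.000136), was the lowest of all members, and its nerve mean lay below the filter. Syn2, a synapsin that ties vesicles to each other and to actin, had 132 and 8.9 (acrylamide) and 125 and 43.0 (saline) in the nerve, against 951 and 1108 (acrylamide) and 1256 and 989 (saline) in the cord, a difference of -3.87 ± 0.48 (adjusted p = 7.63e-05). The nerve mean of Syn2 lay below the filter as well. Syn1, the synapsin with the highest mean, had 264 and 139 (acrylamide) and 320.2 and 144 (saline) in the nerve, against 2299 and 2507 (acrylamide) and 2532 and 2520.2 (saline) in the cord (-3.50 ± 0.24). Snap91, the adaptor AP180 of vesicle retrieval, had 846 and 112 (acrylamide) and 675 and 209 (saline) in the nerve, against 4829.8 and 5181 (acrylamide) and 5000.2 and 4966 (saline) in the cord, a difference of -3.79 ± 0.53 (adjusted p = 0.00016). In Sv2a, Syn2 and Snap91 each nerve array lay below each cord array, and the arrays numbered 1 were the brighter ones in the nerve.

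The synaptotagmins, 16 genes of which 12 were tested here, were called lower in the nerve in 10 and higher in none. Of the 12, 8 passed the filter in the cord alone, 7 of them called, which sets their direction, and among the 4 that passed in both tissues (Syt3, Syt4, Syt11 and Syt15) 3 were called lower. Syt1, the fast calcium sensor of the forebrain, had 39.2 to 157 in the nerve, against 199.7 to 303 in the cord, a difference of -1.48 ± 0.36. Syt2, its counterpart in brainstem and cord, differed by -1.99 ± 0.32, and like Syt1 was under the filter in the nerve. Syt11 differed by -2.07 ± 0.12 and Syt3 by -2.02 ± 0.07. Syt3 had nerve signals of 295.0 to 348 and cord signals of 1286 to 1466, with no overlap. Syt15 was the 1 synaptotagmin higher in the nerve, not called, with 261 to 298 in the nerve and 116 to 155 in the cord.

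Of the Rab3 GTPases, which dock vesicles at release sites, Rab3a, Rab3b and Rab3c were lower in the nerve and Rab3d was higher. Rab3b and Rab3c passed the filter in the cord alone. Rab3a, the main synaptic member, had 767 and 264 (acrylamide) and 570.0 and 245 (saline) in the nerve, against 5437 and 5178 (acrylamide) and 5632 and 5158 (saline) in the cord, a difference of -3.65 ± 0.32. Rab3d, known from exocrine and other secretory cells, had 403 and 417 (acrylamide) and 422 and 467 (saline) in the nerve, against 134 and 74.9 (acrylamide) and 147 and 133 (saline) in the cord, a difference of 1.72 ± 0.16 (adjusted p = 9.83e-06), with no overlap. Nsf, the ATPase that takes SNARE complexes apart, had 1128 and 407 (acrylamide) and 1015 and 384 (saline) in the nerve, against 6637 and 7216 (acrylamide) and 7003 and 6966 (saline) in the cord (-3.38 ± 0.33). Its adaptors differed by -3.41 ± 0.47 (Napb, the brain form), -1.10 ± 0.09 (Napg) and -0.80 ± 0.07 (Napa, used in all cells). The 7 tested syntaxins of endosomes and the Golgi all stayed within 2-fold, from -0.45 for Stx18 to 0.81 for Stx6. Stx7, of late endosomes, had 3032 and 3050.1 (acrylamide) and 3095 and 3351 (saline) in the nerve, against 3738 and 3810.5 (acrylamide) and 3500.4 and 3735 (saline) in the cord. Rab3gap1, part of the enzyme that turns Rab3 off, had 1035 and 1002 (acrylamide) and 1144 and 1053 (saline) in the nerve, against 1517 and 1473 (acrylamide) and 1382 and 1606 (saline) in the cord (-0.49 ± 0.07). Both were lower in the nerve without overlap, by less than 2-fold. The syntaxin-binding proteins also stayed within 2-fold, from -0.96 for Stxbp5 (tomosyn, an inhibitor of SNARE assembly) to -0.02 for Stxbp3. The value of Stxbp5 held on its chosen probe set alone, since its 2 other tested probe sets gave 0.05 and 0.07.

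The Rab30 to Rab39 relatives moved both ways. Rab37 had 62.0 and 7.7 (acrylamide) and 67.2 and 6.2 (saline) in the nerve, against 744 and 1044 (acrylamide) and 695 and 729 (saline) in the cord, a difference of -4.23 ± 0.44 (adjusted p = 2.34e-05), with a nerve mean below the filter. Rab38, which with Rab32 serves lysosome-related organelles, had 614 and 679.7 (acrylamide) and 669 and 572 (saline) in the nerve, against 125 and 108 (acrylamide) and 142 and 154 (saline) in the cord, a difference of 2.14 ± 0.11 (adjusted p = 3.46e-07). Rab34 had 2157 and 2474 (acrylamide) and 2270.1 and 2584 (saline) in the nerve, against 747 and 934 (acrylamide) and 1174 and 992 (saline) in the cord, a difference of 1.30 ± 0.12. Rab33a was called lower, at -2.73 ± 0.26, and Rab36 as well, at -1.71 ± 0.12, with a nerve mean below the filter. Without these 11 relatives, 24 members were called lower in the nerve and 3 higher, Stx11, Rab3d and Vamp8.

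**Figure D3:**
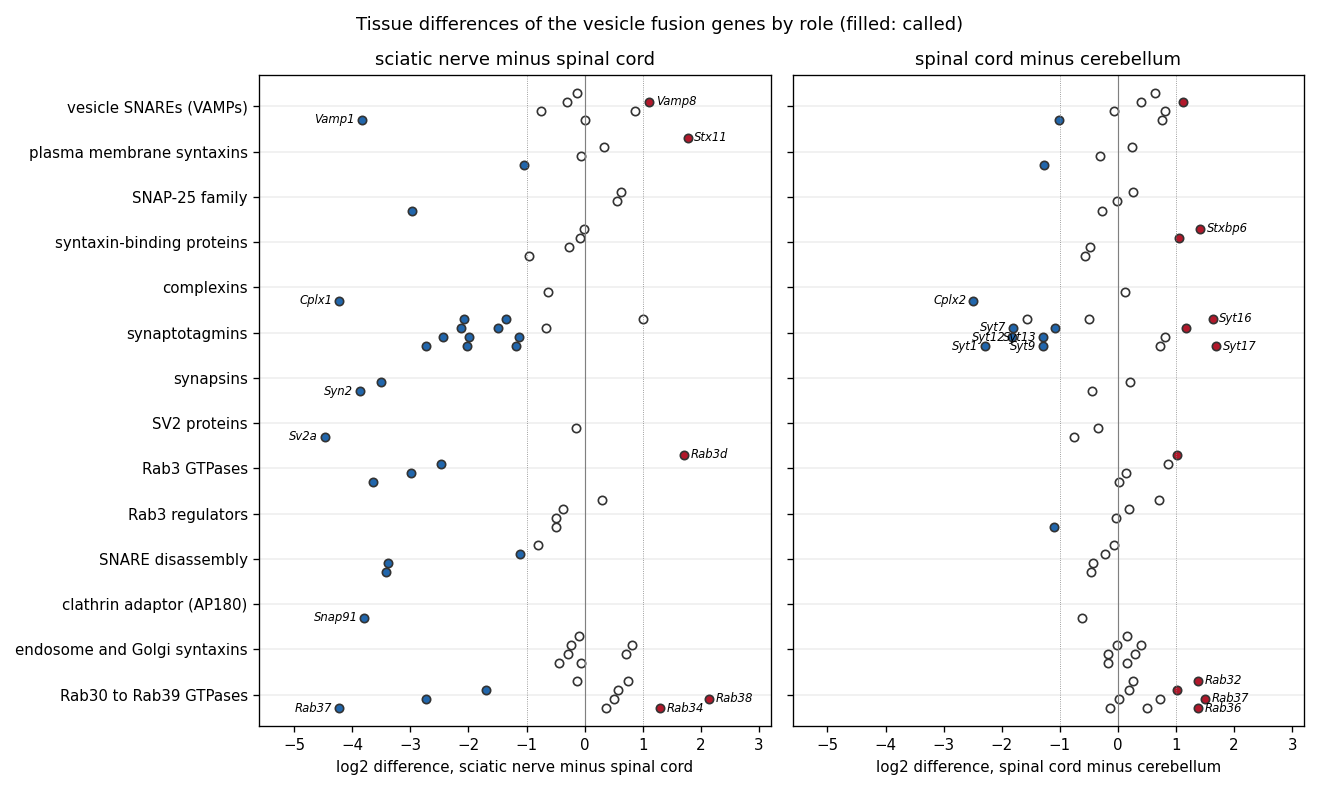
Log2 differences of all tested members, one point each, by role down the page, for sciatic nerve minus spinal cord (left) and spinal cord minus cerebellum (right). Filled points were called (adjusted p below 0.05 and at least 2-fold, the dotted lines). Synaptotagmins, synapsins and Rab3 GTPases reach far to the left in the nerve panel, while endosome and Golgi syntaxins stay between the dotted lines in both.

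The size of these nerve differences depended on the nerve arrays used. Without both arrays numbered 1, which leaves 1 nerve array for each treatment, Snap25 differed between nerve and cord by -4.63 ± 0.10 and Cplx1 by -5.50 ± 0.07. Without both arrays numbered 2 instead, Snap25 differed by -1.31 ± 0.10 and Cplx1 by -2.95 ± 0.06. With 1 nerve array for each treatment, the SEs of these fits hold no spread between nerve pools. The count of members called lower was 27 without the arrays numbered 1 and 25 without those numbered 2, and 31 and 29 of the 32 called members kept their call. Stx1a fell under 2-fold without the arrays numbered 1 (-0.86 ± 0.15), and Vamp8 (0.95 ± 0.12), Napg (-0.94 ± 0.06) and Syt1 (-0.77 ± 0.15) did without those numbered 2. On the saline arrays alone Stx1a was also under 2-fold (-0.97 ± 0.27).

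Sv2b, the second SV2 glycoprotein, gave 2 answers. The brighter probe set, chosen by the rule, had 5012 and 3919.8 (acrylamide) and 4480.0 and 6661 (saline) in the nerve, against 5340.0 and 5612 (acrylamide) and 5561 and 5346 (saline) in the cord, a difference of -0.15 ± 0.12. A second probe set had 283 and 96.2 (acrylamide) and 225 and 85.0 (saline) in the nerve, against 921 and 1088 (acrylamide) and 976 and 1008 (saline) in the cord, a difference of -2.58 ± 0.32 (adjusted p = 7.42e-05). The second probe set followed the array number in the nerve as Snap25 and Cplx1 did, and the chosen one did not. Over the 22 genes with several tested probe sets, 20 had the same sign on all of them and none of the called differences changed sign.

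Against the cerebellum, 30 of 62 tested members were called lower in the nerve and 12 higher, where 20.4% of all 20724 probe sets were called lower and 17.8% higher. This comparison shares its nerve arrays with the one above. Of the 62, 11 passed the filter only in the cerebellum and 5 only in the nerve, which sets their direction, and among the 46 that passed in both 19 were called lower and 7 higher, beside 2346 and 2274 of 16184 probe sets. The neuronal set had 14 of 15 tested genes called lower, with a median of -3.29 (9 of the 10 that passed in both tissues), and the general set 3 lower and 4 higher of 20, with a median of 0.21. Rab34 was among the higher ones that passed in both tissues, at 2.02 ± 0.12, while Rab38, Stx11 and Rab32 were called higher with cerebellar means under the filter. Rab30, a Golgi GTPase, was called higher on its chosen probe set (1.08 ± 0.11) and not on its other one (-0.02 ± 0.17).

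Between spinal cord and cerebellum, complexin 2 and several synaptotagmins were lower in the cord, and a mixed group was higher. Of 66 tested members, 11 were called higher in the cord and 10 lower, where 12.1% of all 20483 probe sets were called higher and 10.1% lower, and the members' median difference was 0.07. Of the 66, 9 passed the filter only in the cord, 7 of them called higher, and 1 only in the cerebellum, which sets their direction. Among the 56 that passed in both tissues 4 were called higher and 9 lower, beside 1509 and 1393 of 17304 probe sets. Of the 21 calls, 9 were synaptotagmins, 3 higher (Syt5, Syt16 and Syt17, all under the filter in the cerebellum) and 6 lower. Snap25, Cplx1, Nsf and Rab3a were within 2-fold, at -0.28 ± 0.79, 0.12 ± 0.60, -0.07 ± 0.33 and 0.02 ± 0.32. In a fit of the 8 arrays of these tissues alone, where the nerve arrays add nothing to the spread, these differences were -0.28 ± 0.08, 0.12 ± 0.05, -0.07 ± 0.06 and 0.02 ± 0.05. That fit called the same 21 members and Syt4, at -1.57 ± 0.06 (adjusted p = 5.5e-09), which had missed the call in the fit of all arrays (SE 0.76, adjusted p = 0.093).

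Syt1 had signals of 199.7 and 262 (acrylamide) and 303 and 226 (saline) in the cord, against 1158 and 1399 (acrylamide) and 1298 and 1209 (saline) in the cerebellum. Every cord array lay below every cerebellar array, a difference of -2.29 ± 0.36 (adjusted p = 0.000395). Syt12 had 226 and 354 (acrylamide) and 208 and 312 (saline) in the cord, against 901 and 1154 (acrylamide) and 947 and 988 (saline) in the cerebellum (-1.82 ± 0.40). Syt9 had 89.0 and 198 (acrylamide) and 166 and 155 (saline) in the cord, against 339.9 and 496 (acrylamide) and 314 and 396 (saline) in the cerebellum (-1.29 ± 0.22). In all 3 genes the tissues did not overlap. Syt13 had 143 and 136 (acrylamide) and 144 and 87.6 (saline) in the cord, against 321 and 347 (acrylamide) and 274 and 383 (saline) in the cerebellum (-1.28 ± 0.20). Syt7, a slower calcium sensor, had 43.6 and 50.4 (acrylamide) and 42.3 and 5.4 (saline) in the cord, under the filter there, against 130.0 and 185 (acrylamide) and 136 and 151 (saline) in the cerebellum (-1.81 ± 0.37). These did not overlap either. Syt2 was called lower as well, at -1.09 ± 0.32, but not on the saline arrays alone (-0.95 ± 0.45, adjusted p = 0.105).

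Cplx2, the second neuronal complexin, had 166 and 154 (acrylamide) and 211 and 232 (saline) in the cord, against 1128 and 1262 (acrylamide) and 743 and 1581 (saline) in the cerebellum. Its difference of -2.50 ± 0.28 (adjusted p = 5.54e-05) was the lowest of the members, and the 4 cerebellar signals spread over more than 2-fold. Cplx1 showed no such gap, at 10549 to 11355 in the cord and 9463 to 10850.4 in the cerebellum. Among the vesicle SNAREs, Vamp2 was lower in the cord (-1.01 ± 0.13, and under 2-fold on the saline arrays alone, -0.95 ± 0.18), with 2387 to 2841 in the cord against 4934 to 5301 in the cerebellum, and Vamp1 was higher, under 2-fold (0.81 ± 0.26), with 11069 to 11672 in the cord against 6053 to 6898 in the cerebellum. Of the 3 Vamp1 probe sets the third went the other way (-0.65 ± 0.14), and it passed the filter in the cerebellum alone. Stx3 was called lower, at -1.28 ± 0.16, and so was Rab3ip, also called Rabin8, with 349.5 to 515 in the cord against 790.1 to 956 in the cerebellum.

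On the higher side stood Syt17, with 198 and 204 (acrylamide) and 194 and 160.0 (saline) in the cord, against 46.4 and 39.2 (acrylamide) and 35.8 and 73.8 (saline) in the cerebellum, a difference of 1.69 ± 0.20 (adjusted p = 6.68e-05). Syt16 had 144 and 135 (acrylamide) and 149 and 104 (saline) in the cord, against 39.7 and 24.4 (acrylamide) and 28.4 and 36.3 (saline) in the cerebellum, a difference of 1.63 ± 0.23. Both passed the filter in the cord only. Stxbp6 (amisyn, a SNARE-binding protein) had 1622 and 1709 (acrylamide) and 1493 and 1501 (saline) in the cord, against 588 and 619 (acrylamide) and 584 and 538 (saline) in the cerebellum, a difference of 1.42 ± 0.06 (adjusted p = 1.38e-07), and Stxbp3 (Munc18c, a partner of Stx4) had 2983 and 3131 (acrylamide) and 2742 and 2864 (saline) in the cord, against 1469.6 and 1384 (acrylamide) and 1392 and 1367 (saline) in the cerebellum, a difference of 1.05 ± 0.05. These 4 genes had no overlap between the tissues. Rab37 had the cord signals given above, against 304 and 306 (acrylamide) and 246 and 227 (saline) in the cerebellum (1.51 ± 0.44), with no call on the saline arrays alone (1.53 ± 0.62, adjusted p = 0.0643). Rab36 had 268 and 269 (acrylamide) and 271 and 238 (saline) in the cord, against 101 and 86.4 (acrylamide) and 94.2 and 83.0 (saline) in the cerebellum (1.37 ± 0.12). Rab32 had 289 and 300.3 (acrylamide) and 308 and 266 (saline) in the cord, against 104 and 104 (acrylamide) and 77.5 and 130.5 (saline) in the cerebellum (1.37 ± 0.16). All 3 were higher in the cord, and Rab38 was too, by 1.01 ± 0.11. Vamp5 and Rab3c were called as well, at 1.12 ± 0.12 and 1.02 ± 0.25. Rab32, Rab36, Rab38 and Rab3c passed the filter in the cord alone.

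Acrylamide was set against saline within each tissue, the study's own question. No member was called in the sciatic nerve (0 of 51), the spinal cord (0 of 65) or the cerebellum (0 of 57). Over all probe sets 0.00553% were called in the nerve (1 of 18088) and 0% in each of the other tissues. The median difference of the members was -0.04 in the nerve (22 higher, 29 lower), 0.01 in the cord (37 higher, 28 lower) and 0.02 in the cerebellum (36 higher, 21 lower), beside medians of all probe sets within 0.0042 of 0. The smallest adjusted p of a member was 0.97 in the nerve, 1 in both other tissues. In the fit of all arrays the median member SE was 0.156 (nerve), 0.175 (cord) and 0.173 (cerebellum). That fit shares 1 spread for each gene over all tissues. In fits of 1 tissue alone the median was 0.166 (nerve), 0.103 (cord) and 0.101 (cerebellum), and no member was called. The cord and cerebellum errors were thus wider in the fit that includes the nerve arrays. With 2 pools a group, small changes could not be seen in either kind of fit.

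At an unadjusted p below 0.05, 1 member was lower and none higher in the nerve (background 2.37% lower and 2.73% higher), 1 was lower and 1 higher in the cord (1.85% and 1.02%), and 1 was lower and 1 higher in the cerebellum (1.43% and 1.28%). These shares lie near the background. Acrylamide and saline arrays did not overlap for 10 of 51 members in the nerve (19.6%), 20 of 65 in the cord (30.8%) and 18 of 57 in the cerebellum (31.6%), beside 26.3%, 33.6% and 33.7% of all probe sets.

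**Figure D4:**
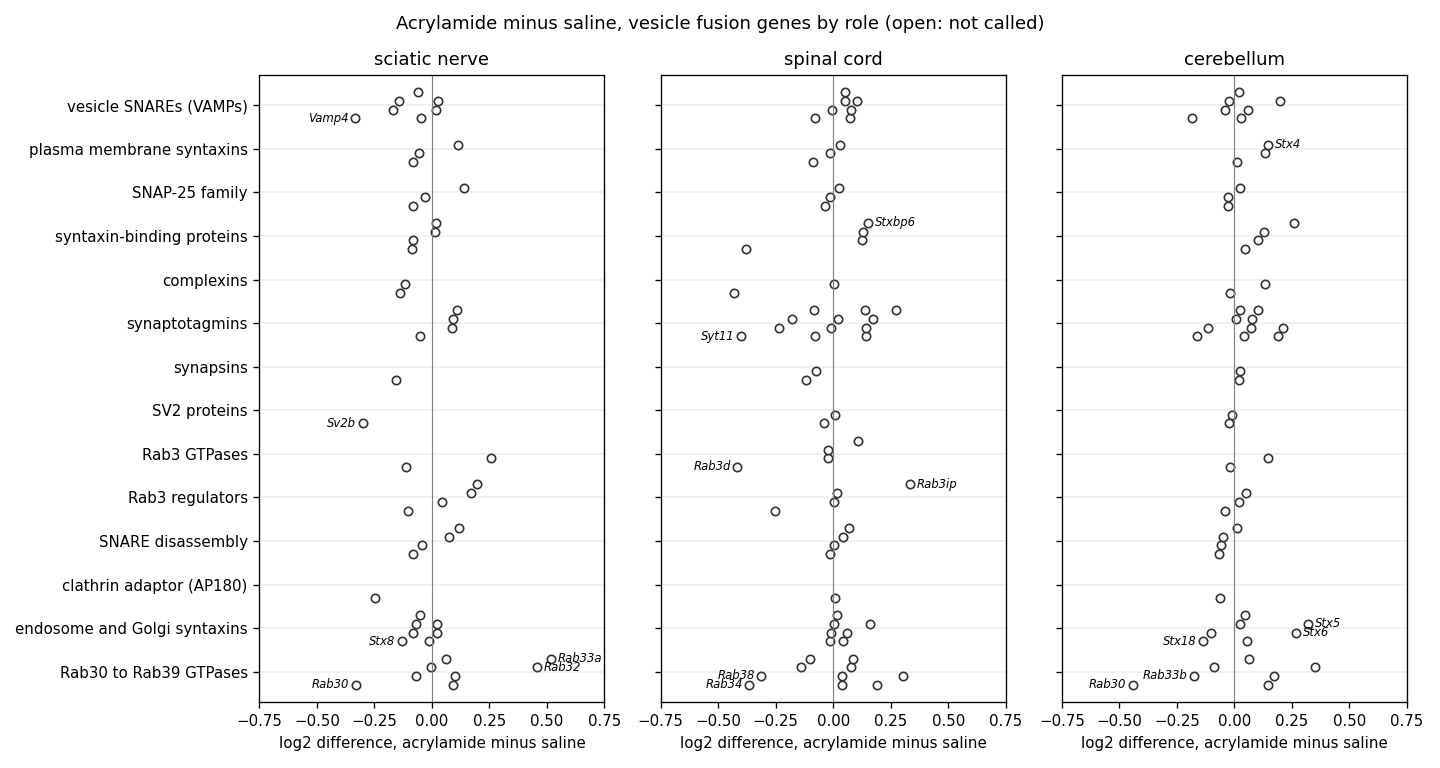
Log2 differences, acrylamide minus saline, of all tested members by role, in sciatic nerve, spinal cord and cerebellum. All points are open, since none was called, and the 6 members with the smallest p in each tissue are named: they range from Rab30 at -0.44 in the cerebellum to Rab33a at 0.52 in the nerve.

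In the nerve the smallest p was that of Vamp4, a SNARE of the Golgi, with 924 and 835 on the acrylamide nerve arrays, against 1042 and 1186 on the saline nerve arrays. Both acrylamide arrays lay below both saline arrays, a difference of -0.34 ± 0.14 (unadjusted p = 0.0355, adjusted p = 0.97). Rab30 had 408 and 401 on the acrylamide nerve arrays, against 512 and 513 on the saline nerve arrays (-0.33 ± 0.16). Rab32 had 545 and 636 on the acrylamide nerve arrays, against 498 and 361 on the saline nerve arrays (0.46 ± 0.22), the acrylamide arrays higher with no overlap. Sv2b had 5012 and 3919.8 on the acrylamide nerve arrays, against 4480.0 and 6661 on the saline nerve arrays (-0.30 ± 0.18), where the groups overlapped. Rab33a had 269.6 and 113 on the acrylamide nerve arrays, against 171 and 79.6 on the saline nerve arrays (0.52 ± 0.36), and here the arrays numbered 1 were the brighter ones in both treatments. Stx8, an endosomal syntaxin, had 689 and 634 on the acrylamide nerve arrays, against 708 and 742 on the saline nerve arrays (-0.13 ± 0.11), with the acrylamide arrays lower.

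The neuronal genes with the surplus on the nerve arrays numbered 1 had wide errors in this comparison, -0.08 ± 1.11 for Snap25 and 0.09 ± 1.07 for Syt4. When both arrays numbered 1 were left out, 1 acrylamide array stood against 1 saline array and its error came from the other groups. Then 4 members were called lower with acrylamide: Snap91 (-0.81 ± 0.09, adjusted p = 0.00367), Sv2b (-0.76 ± 0.12, adjusted p = 0.0115), Napb (-0.48 ± 0.09, adjusted p = 0.0296) and Vamp2 (-0.60 ± 0.12, adjusted p = 0.0325). In that fit 457 of 18088 probe sets were called, 2.53%, beside 4 of the 51 members. On the arrays numbered 1, left alone in turn, the same genes were on the other side and not called, at 0.32 ± 0.09 for Snap91, 0.16 ± 0.12 for Sv2b, 0.31 ± 0.09 for Napb and 0.31 ± 0.12 for Vamp2. The 2 pairs of arrays thus gave opposite signs for all 4 genes. The skeletal muscle and fat cell markers also differ between the arrays of each pair, as given above, and their part was not tested.

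In the cord the smallest p was that of Rab3ip, with 515 and 401 on the acrylamide cord arrays, against 349.5 and 365 on the saline cord arrays, higher on both acrylamide arrays by 0.34 ± 0.14 (unadjusted p = 0.043, adjusted p = 1). Syt11 had 658 and 782 on the acrylamide cord arrays, against 1102 and 819.7 on the saline cord arrays, lower on both acrylamide arrays, a difference of -0.40 ± 0.17 (unadjusted p = 0.0436). Saline replicate 1, the array with the skeletal muscle markers, was the brightest for Syt11. Rab34 had 747 and 934 on the acrylamide cord arrays, against 1174 and 992 on the saline cord arrays (-0.36 ± 0.17), and Rab38 had 125 and 108 on the acrylamide cord arrays, against 142 and 154 on the saline cord arrays (-0.31 ± 0.15). Rab3d had 134 and 74.9 on the acrylamide cord arrays, against 147 and 133 on the saline cord arrays (-0.42 ± 0.22). In Rab34 and Rab38 both acrylamide arrays were the lower ones, while in Rab3d acrylamide replicate 1 exceeded saline replicate 2 slightly. Stxbp6 had 1622 and 1709 on the acrylamide cord arrays, against 1493 and 1501 on the saline cord arrays (0.15 ± 0.08), both acrylamide arrays higher.

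Marker sums of other cell types also differed between the cord arrays, but none of these markers was called for acrylamide. At an unadjusted p below 0.05, 3 of 5 Schwann cell markers and 3 of 5 fibroblast markers were lower (background 1.85% lower). No microglia, macrophage or astrocyte marker reached that threshold. Schwann cell markers summed to 22555 and 18109.8 on the acrylamide cord arrays, against 25644 and 30490.3 on the saline ones, and fibroblast markers (5 genes) to 20292 and 15955, against 26109 and 23863. Microglia and macrophage markers (7 genes) summed to 6784 and 6538 with acrylamide, against 4565 and 4667 with saline, and astrocyte markers (5 genes) to 47925 and 48113, against 42678 and 42526. The part of these cell types in the member values was not tested.

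In the cerebellum the smallest p was that of Stx5, the Golgi syntaxin, with 1149 and 1018 on the acrylamide cerebellum arrays, against 878 and 848 on the saline cerebellum arrays. Both acrylamide arrays were higher, by 0.32 ± 0.10 (unadjusted p = 0.0137, adjusted p = 1). Rab30 had 177 and 174 on the acrylamide cerebellum arrays, against 269.7 and 222 on the saline cerebellum arrays. It was lower on both acrylamide arrays, a difference of -0.44 ± 0.16 (unadjusted p = 0.0197). Stx4 had 1011 and 1116 on the acrylamide cerebellum arrays, against 921 and 999 on the saline cerebellum arrays (0.14 ± 0.08), and Stx6, of the trans-Golgi network, had 1169.8 and 1242 on the acrylamide cerebellum arrays, against 937 and 1066 on the saline cerebellum arrays (0.27 ± 0.16), both higher on the acrylamide arrays without overlap. Rab33b had 871 and 934 on the acrylamide cerebellum arrays, against 1063 and 981 on the saline cerebellum arrays (-0.18 ± 0.11), and Stx18, a syntaxin of the endoplasmic reticulum, had 600.1 and 574 on the acrylamide cerebellum arrays, against 655 and 638 on the saline cerebellum arrays (-0.14 ± 0.10), both lower on the acrylamide arrays without overlap. Microglia and macrophage markers summed to 2309 and 2531 here, against 1727 and 1887, and astrocyte markers to 27969 and 27963, against 23927 and 23834. None of the markers tested here was called. Their part was not tested.

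Within the neuronal set, differences in the fits of 1 tissue alone ran from -0.43 ± 0.16 (Cplx2) to 0.11 ± 0.17 (Rab3c) in the cord and from -0.06 ± 0.07 (Snap91) to 0.19 ± 0.21 (Syt2) in the cerebellum, with no call. Cplx2 had 166 and 154 on the acrylamide cord arrays, against 211 and 232 on the saline cord arrays, lower on both acrylamide arrays without overlap (unadjusted p = 0.0284, adjusted p = 0.87 in that fit). Nsf, whose cysteines acrylamide has been reported to modify in rat nerve terminals, had 6989.9 and 7740.5 on the acrylamide cerebellum arrays, against 6762 and 7866 on the saline cerebellum arrays. In the cord Nsf had 6637 and 7216 on the acrylamide cord arrays, against 7003 and 6966 on the saline cord arrays. Snap25 had 18153 and 20789 on the acrylamide cerebellum arrays, against 17152 and 22846 on the saline cerebellum arrays, and in the cord 15333 and 16538 on the acrylamide cord arrays, against 16627 and 16024 on the saline cord arrays. In the fits of 1 tissue alone, Nsf differed by 0.01 ± 0.09 in the cerebellum and -0.01 ± 0.07 in the cord, Snap25 by -0.03 ± 0.13 and -0.04 ± 0.06, Vamp1 by 0.02 ± 0.08 and -0.01 ± 0.06, and Cplx1 by -0.02 ± 0.08 and 0.002 ± 0.06. A p above the threshold does not show that levels were equal, and proteins were not measured.

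Averaged over the 3 tissues, no member of 46 was called (0.0127% of all, 2 of 15773), and 1 was lower at an unadjusted p below 0.05, with none higher (background 2.85% lower, 2.64% higher). This was Rab30, at -0.30 ± 0.09 (unadjusted p = 0.00821, adjusted p = 0.68). In the cord it had 284 and 289 on the acrylamide cord arrays, against 269.8 and 372 on the saline cord arrays, where the groups overlapped, while in nerve and cerebellum they did not. Its second probe set differed by -0.10 ± 0.14. The next smallest p-values belonged to Syt11 (-0.20 ± 0.10), Rab31 (0.12 ± 0.06) and Stxbp6 (0.09 ± 0.05). Rab31 had 1714 and 1812 (acrylamide) and 1829.5 and 1473 (saline) in the nerve, 1970.5 and 2016 (acrylamide) and 1748 and 1742 (saline) in the cord and 1660.5 and 1536 (acrylamide) and 1538 and 1520.4 (saline) in the cerebellum. Stxbp6 had 1315 and 1328 (acrylamide) and 1327 and 1285 (saline) in the nerve and the cord and cerebellar signals given above. Syt11 had 424 and 508 on the acrylamide cerebellum arrays, against 510.5 and 532 on the saline cerebellum arrays, and in the nerve 166 and 197 on the acrylamide nerve arrays, against 176 and 201 on the saline nerve arrays, with overlap in the nerve. Whether the treatment difference itself varied between tissues was tested with an F test, which called 0 of 46 members (0% of all), none at an unadjusted p below 0.05 (2.33% of all).

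Lists of neighbouring machinery were read the same way. Of 19 active zone and priming genes on the arrays, 7 were tested in the nerve, 14 in the cord and 17 in the cerebellum. The list of 15 vesicle membrane proteins also holds the synucleins Sncb and Sncg. Of it 9, 12 and 11 genes were tested in the same tissues, and of 12 vesicle endocytosis genes 11, 12 and 12. None of those tested was called for acrylamide, beside 0.00553% of all probe sets in the nerve and 0% in cord and cerebellum. In the nerve the smallest p of these lists was that of Amph (amphiphysin, of clathrin-mediated retrieval), with 238 and 185 on the acrylamide nerve arrays, against 134 and 81.2 on the saline nerve arrays. It was higher on both acrylamide arrays by 0.91 ± 0.25 (unadjusted p = 0.00558, adjusted p = 0.892). In the cerebellum Sncg, gamma-synuclein, had 986 and 795 on the acrylamide cerebellum arrays, against 226 and 718 on the saline cerebellum arrays, a difference of 1.097 ± 0.39 (unadjusted p = 0.0208, adjusted p = 1), with saline replicate 1 far below the other 3 arrays. In the cord Snapin had 2694 and 2864 on the acrylamide cord arrays, against 2439.5 and 2465 on the saline cord arrays, a difference of 0.18 ± 0.07 (adjusted p = 1). At an unadjusted p below 0.05, 2.73% of all probe sets were higher in the nerve, 1.02% in the cord and 1.28% in the cerebellum. In the nerve Syngr3 (0.29 ± 0.10) and Dnm1 (dynamin 1, 0.20 ± 0.09) were also higher at that threshold. Of the genes with the 2 smallest p-values in a list and tissue, those that did not reach it were Cadps2 (0.49 ± 0.73) and Slc18a2 (-0.38 ± 0.44) in the nerve, Ppfia3 (0.56 ± 0.46), Ap2a2 (-0.13 ± 0.10), Cltb (-0.14 ± 0.16) and Scamp1 (0.07 ± 0.14) in the cord, and Unc13b (-0.30 ± 0.24), Unc13a (-0.28 ± 0.35), Ston2 (-0.43 ± 0.26), Itsn1 (0.16 ± 0.13) and Dnajc5 (0.07 ± 0.11) in the cerebellum.

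Between nerve and cord, 9 of 14 tested active zone genes were called lower and none higher, 8 of 12 endocytosis genes lower and none higher, and 10 of 14 vesicle membrane proteins lower and 2 higher. Over all 20242 probe sets, 15.5% were called lower and 11% higher. Of the list genes called lower, 6 active zone genes, 5 vesicle membrane proteins and 1 endocytosis gene passed the filter in the cord alone, which sets their direction. Of the list genes that passed in both tissues, 3 of 7 active zone genes, 7 of 11 endocytosis genes and 5 of 7 vesicle membrane proteins were called lower, beside 1608 of 16813 probe sets. The 2 genes of the vesicle membrane list called higher were Syngr1 (1.85), a synaptogyrin, and the synuclein Sncg. Sncg had 14178 and 16879 (acrylamide) and 15419.7 and 18016 (saline) in the nerve, against 7519 and 7648 (acrylamide) and 5177 and 5617 (saline) in the cord (1.33 ± 0.28). Syp, synaptophysin, had 592 and 107 (acrylamide) and 526 and 113 (saline) in the nerve, against 2989.8 and 3231 (acrylamide) and 3096 and 2731 (saline) in the cord (-3.49), and followed the array number in the nerve as Snap25 did.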

How the data were processed

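RNA from the 12 tissue pools was hybridised to Affymetrix rat arrays after biotin labelling. The deposited values are an intensity per probe set on a linear scale, and the submitters' processing notes name GCOS 1.1 as the software. Which algorithm and target intensity it used is not given in the sources used here. The values were kept as deposited, 16 was added and log2 taken, with no further normalization. R 4.3.3 with limma 3.58.1 (lmFit, eBayes with a trend) fitted 1 mean for each of the 6 groups, over probe sets whose mean in at least 1 tissue passed the 40th percentile. Each contrast was adjusted by Benjamini-Hochberg over the probe sets that passed in a tissue it compares. Tissue differences average both treatments. All p-values in the text are from this limma test or from a named alternative. The fit was tested on simulated data. Gene symbols came from the platform annotation: 20832 probe sets had 1 symbol, 436 several and 9780 none. Members with the smallest p-values, the largest called tissue differences and the highest mean in each role are given on every array. The members, lists and rules were chosen with earlier results of these data known. The number of arrays limits the precision. Alternatives were other pseudocounts and filters, quantile normalization, fits of the compared tissues alone, replicate blocks, saline arrays only and arrays left out, the last including both nerve arrays of 1 number.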

Additional observations from a re-analysis of the deposited data

How the results depend on the processing

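With 2 pools a group, each array carries much weight, and dim probe sets near the filter are the least certain. A count over results for single genes and alternative settings held 1126 cases that kept their direction and their side of the threshold. In it 3 were weaker, 1 was stronger and 2 reversed. It does not hold every member, since Snap91, Napb and Vamp2 changed sign between the pairs of nerve arrays as well as Sv2b, as given above. It is thus no measure of how stable the nerve results were. Calls of tissue differences, which also need a 2-fold difference, changed as well. On the saline arrays alone, Rab37, Syt2 and Vamp2 lost their call between cord and cerebellum. Stx1a lost its call there between nerve and cord, and Rab3il1 between nerve and cerebellum. Syt4 gained a call in the fit of cord and cerebellum alone. Members called higher in cord than in cerebellum numbered 7 with a pseudocount of 64, beside 1896 of 20483 probe sets. They numbered 4 with a filter at the 60th percentile, beside 1705 of 14286 probe sets, and 7 of 56 without the Rab30 to Rab39 relatives. The stricter filter tests fewer genes, so a smaller count there is not by itself a loss of calls. Members called lower in nerve than in cord numbered 17 with the filter at the 60th percentile, beside 2221 of 14063 probe sets. Those called higher numbered 3 of 56 without the relatives. Without both nerve arrays numbered 1, 4 members were called for acrylamide in the nerve, 1 in the mean of the 3 tissues and 1 in the test between tissues. Sv2b for acrylamide in the nerve was 0.161 without both nerve arrays numbered 2, and the value of Rab33a, acrylamide minus saline, sciatic nerve, ranged between -0.056 and 1.093 when single arrays were left out. The causes were not tested. With the replicate block within tissues, 0 members were called for acrylamide in any tissue, and 11 were higher and 11 lower in cord than in cerebellum. The deviations of same-numbered arrays correlated at 0.092 in the cerebellum, -0.086 in the cord and 0.329 in the nerve. In the nerve these arrays thus deviated partly together, as given above for many neuronal genes. The labels do not say that a number is shared between groups, so the numbers were not shown to pair the pools.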
